A study of Mus musculus with 20 samples.

Results

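Amino acids and small peptides enter the body across the brush border of the small intestine and are recovered from the primary urine across the brush border of the renal proximal tubule. The transporters examined here are 10 genes taken by name from a count table of 55401 genes, namely Slc6a19, Slc7a9, Slc3a1, Slc1a1, Slc7a7, Slc7a8, Slc6a20a, Slc6a20b, Slc15a1, and Slc15a2. All 10 were found on 1 row each. The table holds RNA-seq of the small intestine, kidney, liver, spleen, and heart of WT mice and mice lacking Nsun6, an RNA methyltransferase that deposits 5-methylcytosine. Each organ and genotype has 2 libraries, giving 20 in all, with 15897446 to 44508197 counts per library. Nsun6-KO mice were made in C57BL/6J fertilized eggs with CRISPR/Cas9 by removing exons 3 and 4 in all cells, and homozygous KO animals came from heterozygous parents. The methods describe 8-week-old female mice. Nothing in the sources used here ties libraries of different organs to 1 animal or says which stretch of the small intestine was taken, and p-values measure the spread between the labelled replicates.

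Both absorptive epithelia share 1 division of labour. At the apical membrane, Slc6a19 (B0AT1) carries neutral amino acids, and Slc1a1 carries glutamate and aspartate. Slc7a9 and its partner Slc3a1 (rBAT) form the exchanger for cystine and cationic amino acids there. Slc6a20a, to which Slc6a20b is related, carries proline and related imino acids. Slc15a1 (PepT1) and Slc15a2 (PepT2) carry di- and tripeptides together with protons. At the basolateral membrane, Slc7a7 and Slc7a8 pass cationic and neutral amino acids on to the blood. Loss of SLC6A19 in humans causes Hartnup disorder, loss of SLC3A1 or SLC7A9 causes cystinuria, and loss of SLC7A7 causes lysinuric protein intolerance.

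On GRCm38, Slc6a20b (chromosome 9, 123590800 to 123632565) and Slc6a20a (chromosome 9, 123634770 to 123678885) lie on the minus strand in the same orientation, with 2204 bases between them. Slc15a1 (chromosome 14, 121459621 to 121505252) and Slc15a2 (chromosome 16, 36750177 to 36784962) are on different chromosomes. Within each of these pairs of related genes, one member was high in the small intestine and the other in the kidney, so the bases before their start sites are shown. The sequences are those of RefSeq (GRCm38.p6), written 5′ to 3′ in the direction of the gene, with the start of transcription after the last base except for Slc6a20a, where the 23 bases next to the start are left out. The last 30 bases printed for Slc6a20a and the last 27 for Slc6a20b lie inside the genes as the count table annotates them, whose starts are further out than those of RefSeq. They span chr9:123678856-123679082 for Slc6a20a, chr9:123632539-123632788 for Slc6a20b, chr14:121505255-121505504 for Slc15a1, and chr16:36784963-36785212 for Slc15a2. Capitals mark the only matches, on either strand, to motifs of 4 factors known from these epithelia. The motif of HNF1, a part of its full site, was searched as GTTAAT. The motif of HNF4 was searched as CAAAGTCCA. The motif of CDX was searched as TTTATG. The motif of GATA factors was searched as AGATAA.
Slc6a20a: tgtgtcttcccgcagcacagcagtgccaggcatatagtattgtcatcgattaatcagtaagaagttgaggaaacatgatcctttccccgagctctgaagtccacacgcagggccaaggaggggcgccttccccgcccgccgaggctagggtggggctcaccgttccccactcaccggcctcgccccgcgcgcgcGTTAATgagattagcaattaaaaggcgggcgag
Slc6a20b: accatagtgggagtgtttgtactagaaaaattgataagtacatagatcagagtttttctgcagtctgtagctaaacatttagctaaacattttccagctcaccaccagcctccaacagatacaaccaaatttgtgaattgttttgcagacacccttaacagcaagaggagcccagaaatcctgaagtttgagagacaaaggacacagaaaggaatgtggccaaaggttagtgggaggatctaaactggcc
Slc15a1: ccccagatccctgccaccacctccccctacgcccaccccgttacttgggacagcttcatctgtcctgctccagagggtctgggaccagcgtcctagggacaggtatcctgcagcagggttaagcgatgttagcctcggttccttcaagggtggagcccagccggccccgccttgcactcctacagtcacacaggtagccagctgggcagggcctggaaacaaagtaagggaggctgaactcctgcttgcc
Slc15a2: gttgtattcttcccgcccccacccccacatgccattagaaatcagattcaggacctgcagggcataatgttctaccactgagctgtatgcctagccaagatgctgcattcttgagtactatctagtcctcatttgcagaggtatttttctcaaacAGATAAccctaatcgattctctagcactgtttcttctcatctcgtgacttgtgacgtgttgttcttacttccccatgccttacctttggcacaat

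In the 250 bases before a start, the HNF1 motif was present in 6.43% of 32851 RefSeq promoters, the HNF4 motif in 0.384%, the CDX motif in 10.8%, and the GATA motif in 9.99%. Slc6a20a held the HNF1 motif from 56 to 51 bases before its start and Slc15a2 held the GATA motif from 95 to 90 bases before its start, while neither Slc6a20b nor Slc15a1 held any of the 4. Of the other members, Slc3a1 held the HNF4 motif from 39 to 31 bases before its start and a GATA motif from 119 to 114. Slc7a9 and Slc7a7 held motifs at some of their starts, and Slc6a19, Slc1a1, and Slc7a8 held none. The Slc6a19 window (chr13:73692637-73692886) lies wholly inside the gene as the count table annotates it (up to 73704865). The same holds for the windows of Slc7a9 and some of Slc7a7, and those of Slc1a1 and Slc7a8 lie partly inside. Windows wholly inside do not hold the bases before the annotated starts. The GC content of the 250 bases was 61.2% in Slc6a20a against 41.6% in Slc6a20b, and 62.0% in Slc15a1 against 45.2% in Slc15a2. These matches describe the letters of the windows.

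The other members are Slc6a19 (chromosome 13, 73679745 to 73704865, minus strand), Slc7a9 (chromosome 7, 35448796 to 35466036, plus strand), Slc3a1 (chromosome 17, 85028376 to 85064236, plus strand), Slc1a1 (chromosome 19, 28835049 to 28913960, plus strand), and 2 genes of the minus strand of chromosome 14, Slc7a7 (54369442 to 54417780) and Slc7a8 (54722209 to 54781946). Because the stored counting command has no strand option, reads of an overlapping gene on the other strand may be counted too. Such a gene covers 31.9% of the exon bases of Slc1a1, 26.5% of Slc3a1 (Prepl), 21.1% of Slc6a20b (Sacm1l), 14.3% of Slc6a20a, and 7.0% of Slc7a7 (Oxa1l), and their share of the counts was not tested.

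The targeted gene was read first. Nsun6 ranged from 4.35 to 9.81 CPM (counts scaled to the size of each library over all 20 libraries) in the 10 WT libraries and from 3.32 to 9.73 CPM in the 10 KO libraries. Within organs, the KO was lower without overlap in the kidney, the liver, and the heart, and the genotypes overlapped in the small intestine and the spleen. These counts sum all exons of the gene, of which only exons 3 and 4 were removed, and therefore do not check the labels. The organ labels were read from marker genes. In the kidney, all 10 proximal tubule markers had counts in every library, led by Kap at a mean of 110815 TPM (which also allow for gene length), and the enterocyte markers Alpi, Cdx1, and Cdx2 were at 0. Among the enterocyte markers, Epcam was highest in the kidney, at a mean of 94.1 TPM. In the small intestine, all 10 enterocyte markers had counts in every library, led by Fabp2 at a mean of 22786 TPM, while the tubule markers Slc22a6 and Slc22a8 were at 0. Of the other tubule markers there, Slc27a2 was highest at a mean of 141 TPM, and Cubn ranged from 13.1 to 142 TPM.

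Per length, Slc6a19 was the most abundant member in the small intestine, with a mean level of 545.0 TPM ± 318 (SD, n = 4), followed by Slc7a9 at 478 TPM ± 308 and Slc3a1 at 255 TPM ± 174. In the kidney the first place was held by Slc3a1 at 499 TPM ± 102, followed by Slc7a9 at 175 TPM ± 43.7 and Slc6a19 at 143 TPM ± 71.1. Neighbours among these first 3 places overlapped over libraries, except that every kidney library held more Slc3a1 than any held Slc7a9. The lowest place was held by Slc6a20b in the small intestine at 1.35 TPM ± 0.901 and by Slc15a1 in the kidney at 0.275 TPM ± 0.152. Summed over the 10 genes, levels ranged from 1216 to 3289 TPM in the small intestine and from 1017 to 1242 TPM in the kidney. The liver reached at most 29.9 TPM, the spleen 62.4 TPM, and the heart 14.9 TPM. Every library of these 2 epithelial organs held counts of all 10 genes.

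**Figure D1:**
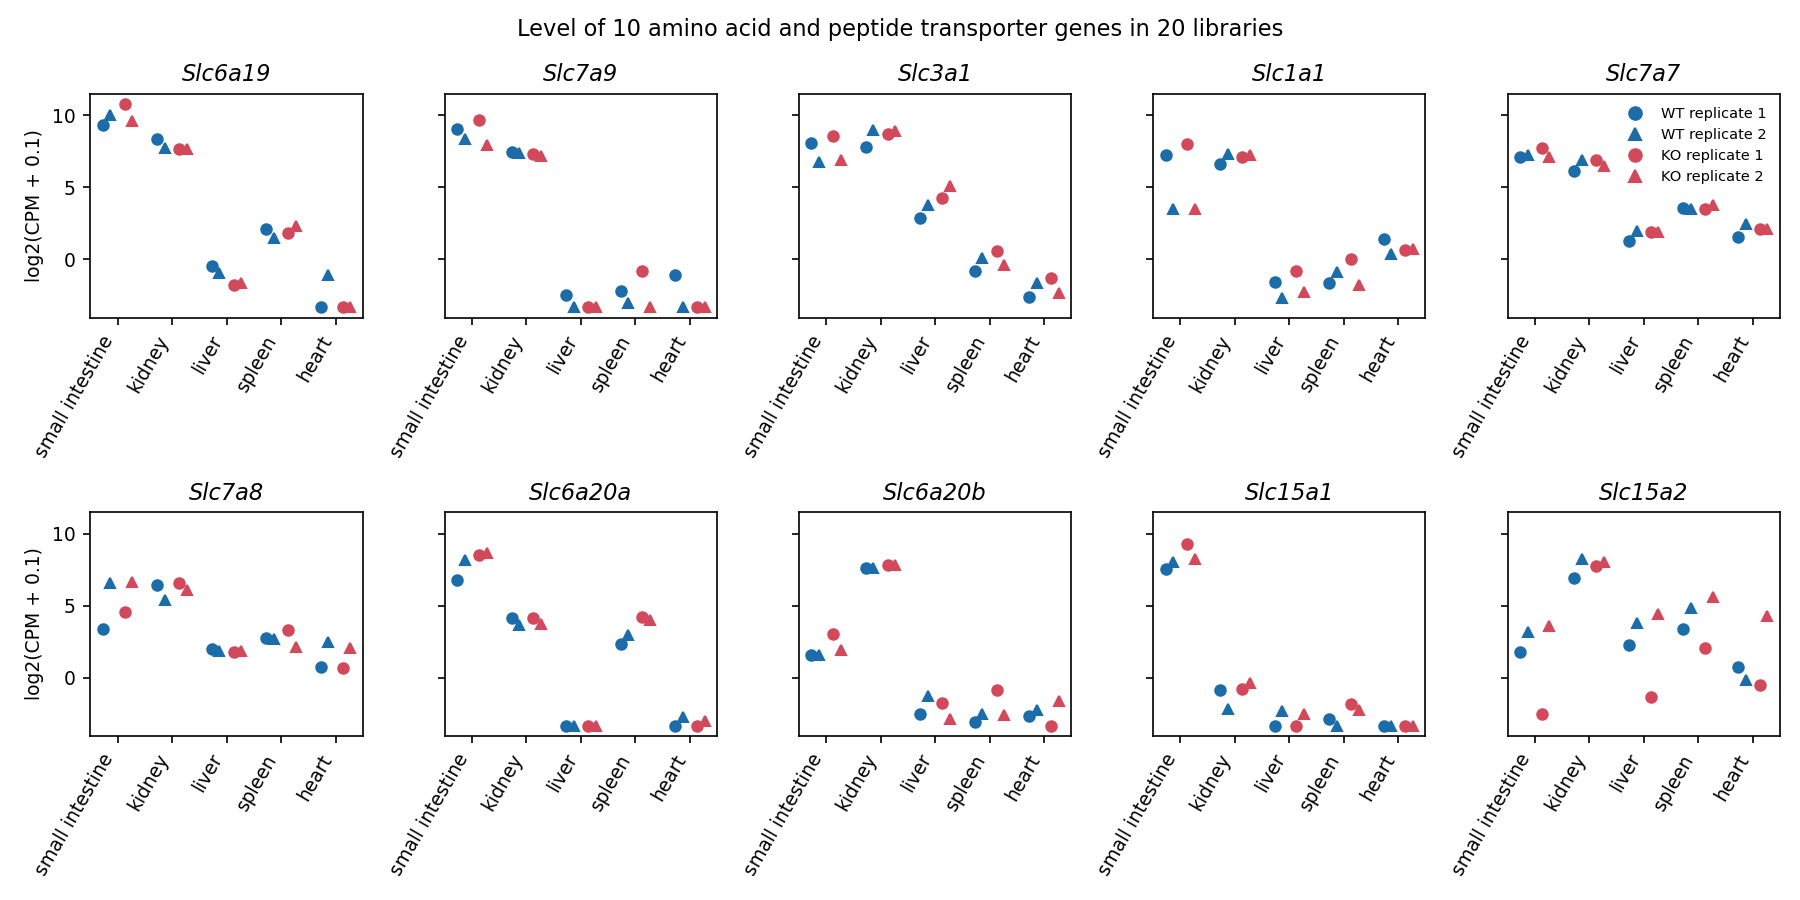
Level of each of the 10 genes, as log2(CPM + 0.1), in the 4 libraries of each organ, with colour for genotype and symbol for replicate number. By mean level, the small intestine and kidney are the highest organs for 9 of the 10 genes, the exception being Slc15a2, and the kidney and spleen overlap for Slc6a20a.

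In 1 fit of all 20 libraries, 6 of the 10 genes were called higher in their leading organ than in the next one (adjusted p under 0.1 and fold change over 2). The leading organ was the small intestine for Slc6a19, Slc7a9, Slc6a20a, and Slc15a1 and the kidney for Slc6a20b and Slc15a2. Of all 21168 genes, 47.9% passed the same rule between the small intestine and kidney and 52.5% between the kidney and spleen. For the other pairs the share was 36.9% (kidney and liver), 40.1% (kidney and heart), 48.8% (small intestine and liver), 51.4% (small intestine and spleen), 55.7% (small intestine and heart), 54.6% (liver and spleen), 47.2% (liver and heart), and 54.7% (spleen and heart). For Slc3a1, Slc1a1, Slc7a7, and Slc7a8, the small intestine and kidney could not be ordered by this rule, and all 4 were higher in both organs than in the third. Outside these epithelia, Slc3a1 was highest in the liver at 7.27, 13.3, 18.7, and 34.6 CPM, which was above the spleen by 4.29 on the log2 scale (SE 0.50, adjusted p = 9.27e-07). Slc7a7 in the spleen ranged from 10.9 to 13.6 CPM, above the 2.87 to 5.35 CPM of the heart (adjusted p = 1.12e-05). Slc6a20a had no counts in any liver library, and its kidney libraries (12.4 to 18.1 CPM) overlapped with its spleen libraries (5.05 to 18.8 CPM), whose log2 difference of 0.55 (SE 0.35, adjusted p = 0.188) was not called. In the liver, spleen, and heart, Slc7a9 stayed at or under 0.475 CPM, Slc6a20b at or under 0.452 CPM, and Slc15a1 at or under 0.181 CPM. All 3 of these highest values are from the spleen KO replicate 1 library, which held kidney markers, and without it they were 0.374, 0.319, and 0.118 CPM. Among these 3 organs, the neighbours in the order overlapped for these genes, and the call of Slc15a1 in the liver over the heart rests on a heart with no counts. For Slc15a2, the spleen, liver, small intestine, and heart followed the kidney in this order without a call between neighbours.

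The kidney was compared with the small intestine over 4 libraries each, with genotype as a term. Of the 10 genes, 2 were called higher in the kidney and 4 lower, where 24.1% and 22.7% of the 18700 genes tested were called in these directions, 46.8% together. The median log2 difference of the 10 genes was -0.18, against 0.04 over all genes. The libraries of the organs did not overlap for 7 of the 10, against 48.3% of all genes. In whole organs, fewer cells of a type and less RNA per cell cannot be told apart. Markers of the cells that make up the organs differed as well. Of the proximal tubule markers 9 of 10 and of the other nephron markers 10 of 10 were called higher in the kidney, and 10 of 10 enterocyte markers and 7 of 8 smooth muscle markers were called lower. Their part in the transporter values was not tested.

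Slc15a1, the intestinal peptide carrier of high capacity, had the widest difference. It stood at 184 and 263 CPM in the WT and at 620.5 and 299 CPM in the KO small intestine (replicates 1 and 2 in this order throughout). In the kidney it stood at 0.460 and 0.124 CPM in the WT and at 0.492 and 0.679 CPM in the KO. The organs did not overlap, and Slc15a1 was lower in the kidney by 9.55 on the log2 scale (log2 fold change -9.55, SE 0.52, adjusted p = 1.07e-05).

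Slc15a2, the peptide carrier of higher affinity known from the later proximal tubule, went the other way. Its kidney libraries stood at 123 and 303 CPM in the WT and at 213 and 264 CPM in the KO. Its intestinal libraries stood at 3.45 and 8.98 CPM in the WT and at 0.0729 and 12.04 CPM in the KO. The organs did not overlap, with a log2 fold change of 5.18 (SE 1.11, adjusted p = 0.00527), and the KO replicate 1 library of the small intestine lay far below the other 3. Within the pair, Slc15a1 made up at least 97.4% of the summed TPM in each small intestine library and at most 0.561% in each kidney library.

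The neighbouring genes Slc6a20a and Slc6a20b split in the same manner. Slc6a20a stood at 109 and 289.7 CPM in the WT and at 368 and 397 CPM in the KO small intestine. In the kidney it stood at 18.09 and 12.38 CPM in the WT and at 18.04 and 12.97 CPM in the KO. Every intestinal library was above every kidney library, with a log2 fold change of -4.17 (SE 0.41, adjusted p = 0.000103). Slc6a20b stood at 198 and 197 CPM in the WT and at 228 and 231 CPM in the KO kidney. Its intestinal libraries stood at 2.93 and 2.85 CPM in the WT and at 7.98 and 3.74 CPM in the KO. The kidney libraries lay close together and far above the intestinal ones, with a log2 fold change of 5.69 (SE 0.34, adjusted p = 1.26e-05). Slc6a20a made up 98.7% to 99.6% of the summed TPM of this pair in the small intestine and 10.51% to 16.02% in the kidney.

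**Figure D2:**
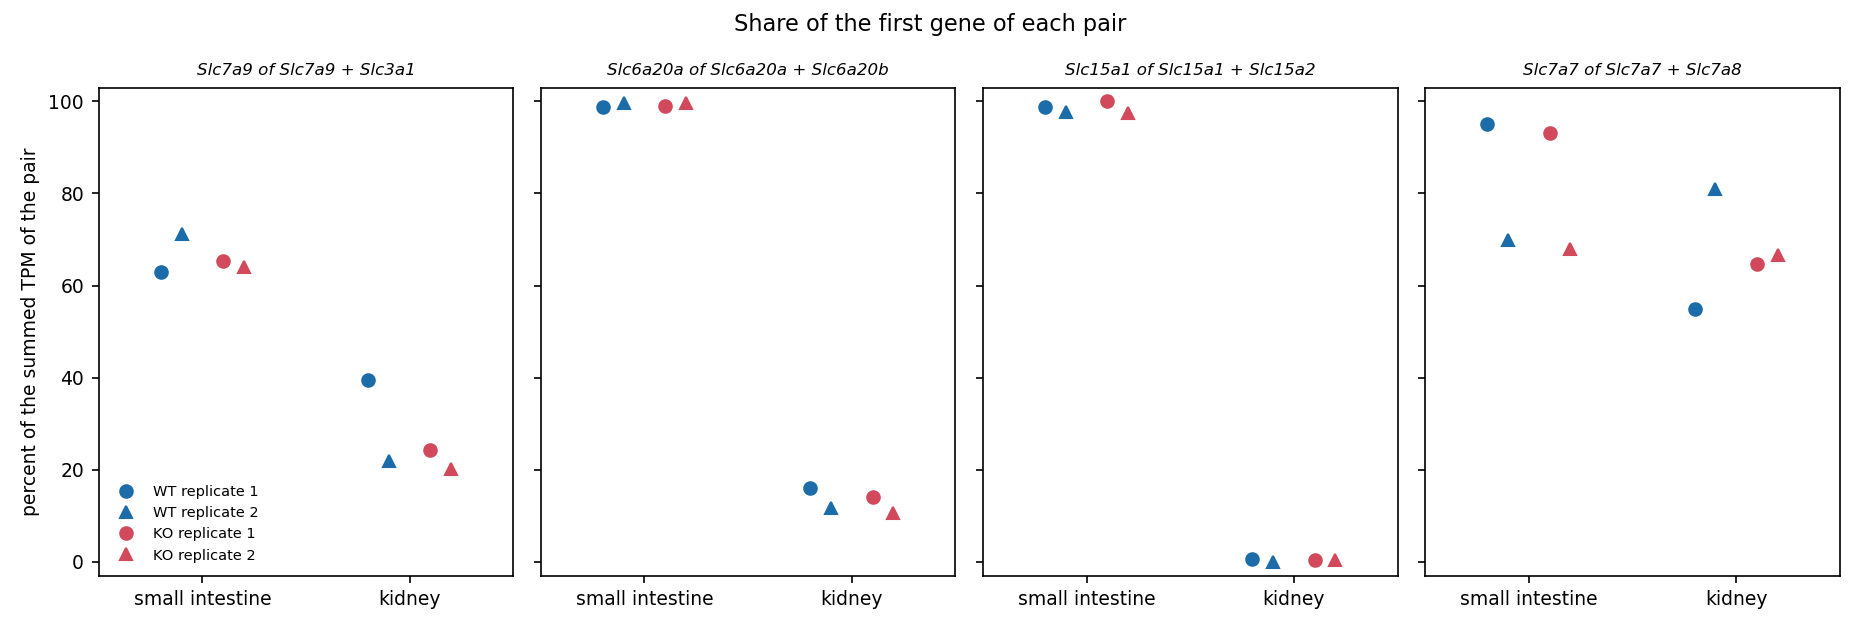
Share of the first gene in the summed TPM of 4 gene pairs (vertical axis, percent) in each small intestine and kidney library, with colour for genotype and symbol for replicate number. The shares of Slc6a20a and Slc15a1 are over 97% in the small intestine and at most 16.02% in the kidney, and Slc7a9 falls from at least 62.9% of its sum with Slc3a1 to at most 39.5%.

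Slc6a19, the main carrier of neutral amino acids, was also higher in the small intestine. It stood at 631 and 1048 CPM in the WT and at 1768 and 754 CPM in the KO small intestine. In the kidney it stood at 331 and 215 CPM in the WT and at 198 and 201 CPM in the KO. The organs did not overlap, and the log2 fold change was -2.14 (SE 0.40, adjusted p = 0.00298). In the kidney the carrier is known to need collectrin (Cltrn) at the membrane. Cltrn stood at a mean of 0.755 CPM ± 0.698 in the small intestine and 2649.5 CPM ± 702 in the kidney (n = 4 each, log2 fold change 11.94, SE 0.84, adjusted p = 2.26e-05). Cltrn was thus called in the direction opposite to Slc6a19.

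Slc7a9 and Slc3a1, whose proteins form 1 exchanger, had log2 fold changes of opposite sign, of which that of Slc7a9 was called. Slc7a9 stood at 523 and 322 CPM in the WT and at 824 and 248 CPM in the KO small intestine. In the kidney it was narrow, at 169.7 and 169 CPM in the WT and at 155 and 145 CPM in the KO. The organs did not overlap, and Slc7a9 was lower in the kidney (log2 fold change -1.57, SE 0.38, adjusted p = 0.00995). Slc3a1 stood at 261 and 110.0 CPM in the WT and at 372 and 118 CPM in the KO small intestine. In the kidney it stood at 220.2 and 510.4 CPM in the WT and at 408 and 486 CPM in the KO. The organs overlapped and the log2 fold change of 0.93 (SE 0.45, 95% interval -0.10 to 1.97, adjusted p = 0.121) was not called. Without the intestinal KO replicate 1 library it was 1.32 and called (adjusted p = 0.0589), as it was without the kidney WT replicate 1 library (1.14, adjusted p = 0.0810). Per length, each intestinal library held 1.70 to 2.48 times as much Slc7a9 as Slc3a1, and each kidney library 0.254 to 0.654 times as much, so the ratio did not overlap between the organs.

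The other 3 genes were not called. Slc7a7, the basolateral exporter of cationic amino acids, stood at 136 and 149 CPM in the WT and at 213 and 139.5 CPM in the KO small intestine. In the kidney it stood at 69.6 and 118 CPM in the WT and at 118 and 89.5 CPM in the KO. All kidney libraries were below all intestinal ones, but the log2 fold change of -0.68 (SE 0.25, adjusted p = 0.0538) was under 2-fold. Slc1a1, the glutamate carrier, stood in the kidney at 98.5 and 155 CPM in the WT and at 137 and 151 CPM in the KO. The intestinal libraries split, at 148 and 11.2 CPM in the WT and at 255 and 11.1 CPM in the KO. The organs overlapped, and the log2 fold change was 0.41 (SE 0.90, 95% interval -1.64 to 2.47). Slc7a8, the basolateral exchanger of neutral amino acids, stood at 86.5 and 41.9 CPM in the WT and at 97.4 and 67.9 CPM in the KO kidney. In the small intestine it stood at 10.5 and 96.8 CPM in the WT and at 24.1 and 99.1 CPM in the KO, giving a log2 fold change of 0.32 (SE 0.66, 95% interval -1.19 to 1.84). For both genes the intestinal libraries fell apart by replicate number.

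**Figure D3:**
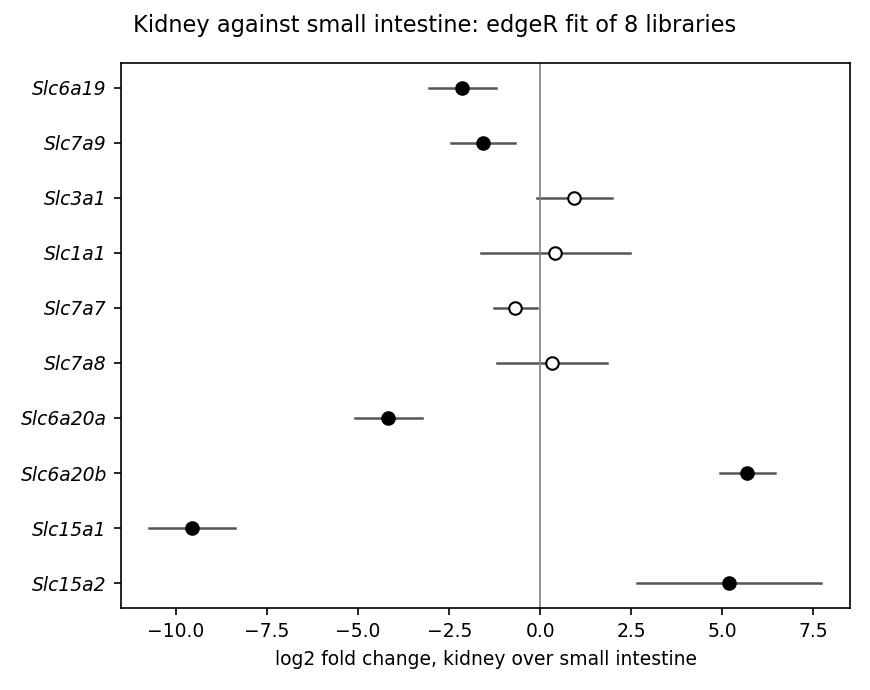
Log2 fold change of each gene between the kidney and the small intestine (horizontal axis, positive where the kidney is higher) in the edgeR fit of 8 libraries, with 95% intervals as lines and filled points where the gene was called. Slc6a20b and Slc15a2 stand on the kidney side, Slc15a1, Slc6a20a, Slc6a19, and Slc7a9 on the intestinal side.

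The comparison was repeated with the intestinal libraries of 1 replicate number at a time against the same 4 kidney libraries. Against replicate 1, Slc1a1 had a log2 fold change of -0.56 (adjusted p = 0.171) and Slc7a8 of 2.15 (adjusted p = 0.00997). Against replicate 2, Slc1a1 had 3.56 (adjusted p = 0.000261) and Slc7a8 had -0.46 (adjusted p = 0.326). The sign of both genes therefore turned with the intestinal libraries used. Slc7a9 was called against replicate 1 (-2.09) and fell under 2-fold against replicate 2 (-0.86), while Slc3a1 was called against replicate 2 (1.79) and not against replicate 1 (0.34). Slc6a19, Slc6a20a, Slc6a20b, Slc15a1, and Slc15a2 were called against either.

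Of 57 further amino acid and peptide carriers, 46 were tested, of which 12 were called higher in the kidney, 13 lower, and 21 neither (median log2 fold change 0.17), shares close to the 24.1% and 22.7% of all genes. The 5 called genes with the highest fitted log2 fold change, which is not an order of level, were Slc7a12, Slc7a13, Slc6a13, Slc6a15, and Slc6a18. Slc6a18 (B0AT3), a relative of Slc6a19 at the tubular brush border, stood at 801 CPM ± 167 in the kidney and 7.65 CPM ± 6.43 in the small intestine (log2 fold change 6.72, SE 0.87, adjusted p = 0.000444). Slc7a12 reached 349.7 CPM ± 98.6 in the kidney and had no counts in the small intestine, which makes it at least 13002-fold higher against a floor of 3 counts over the group (0.0269 CPM). Slc7a13, a partner of Slc3a1 in the late proximal tubule, was likewise at 0 in the small intestine and at 4.06 CPM ± 5.92 in the kidney, at least 151-fold higher, so that its place in this order is not fixed. Because its SD exceeds its mean, this bound also depends on which kidney libraries are used. Slc6a13, a carrier of GABA and taurine, had a log2 fold change of 9.77 and Slc6a15, a carrier of branched-chain amino acids and proline, one of 7.60. The 5 with the lowest fitted log2 fold change were Slc7a15 (242 CPM ± 106 in the small intestine and 0.170 CPM ± 0.115 in the kidney, log2 fold change -10.46), Slc6a14 (-7.31), Slc7a14 (73 counts against 0 in the kidney, at least 25.4-fold lower), Slc17a8 (-5.34), and Slc6a7 (-4.65). Slc6a14, Slc7a14, and Slc17a8 passed the test although their libraries overlapped between the organs.

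Brush-border peptidases, which release the substrates of these carriers, were lower in the kidney in 9 of the 11 genes tested and higher in none, where 22.7% of all genes were called lower and 24.1% higher. Naaladl1 stood at 1104 CPM ± 1239 in the small intestine and 0.894 CPM ± 0.692 in the kidney (log2 fold change -10.21, SE 1.64, adjusted p = 0.00132). Anpep (aminopeptidase N) stood at 2098 CPM ± 1135 and 48.2 CPM ± 19.5 in the same order (log2 fold change -5.45, SE 0.47). Xpnpep2 (aminopeptidase P) had a log2 fold change of -4.28 (SE 0.99).

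The next comparison concerned the intestinal libraries themselves, set by replicate number with genotype as a term. Genes known from the proximal intestine summed to 1811 TPM (WT) and 2875 TPM (KO) in the replicate 1 libraries and to 28857 TPM (WT) and 42326 TPM (KO) in the replicate 2 libraries, where Fabp1 led. Genes known from the distal intestine summed to 42717 and 42209 TPM in replicate 1, led by Fabp6, and to 226 and 229 TPM in replicate 2, where Osr2 and Hoxb9 were at 0. Replicate 1 was thus distal-like and replicate 2 proximal-like in both genotypes, by 10 markers of each kind. Of these, 8 of 10 proximal markers tested were called higher in replicate 2 and 1 lower (Bcl2l15), and 8 of 8 distal markers tested were called lower. The libraries were split by the labels alone, and other differences between the replicates cannot be told apart from position.

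Between replicate numbers, 1 transporter was called higher in replicate 2 and 2 lower, where 4.52% and 3.11% of the 17680 genes tested were called, 7.64% together. For 5 of the 10 the replicates did not overlap, against 54.7% of all genes. Slc1a1 fell from 148 and 255 CPM in the WT and KO libraries of replicate 1 to 11.2 and 11.1 CPM in those of replicate 2 (log2 fold change -4.09, SE 0.29, adjusted p = 0.0166). Slc7a8 rose from 10.5 and 24.1 CPM to 96.8 and 99.1 CPM (log2 fold change 2.65, SE 0.35, adjusted p = 0.0424). Slc3a1 fell from 261 and 372 CPM to 110.0 and 118 CPM (log2 fold change -1.42, SE 0.21, adjusted p = 0.0538). Without either one of the replicate 2 libraries, and with no genotype term, Slc7a8 (2.58 and 2.57, adjusted p = 0.173 and 0.194) and Slc3a1 (-1.37 and -1.45, adjusted p = 0.202 and 0.204) were not called, whereas Slc1a1 was (-4.13 and -4.09, adjusted p = 0.0480 and 0.0502).

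Slc7a9 pointed the way of its partner Slc3a1, from 523 and 824 CPM in replicate 1 to 322 and 248 CPM in replicate 2, with a log2 fold change of -1.19 (SE 0.33, adjusted p = 0.155) that was not called. DESeq2 called it at the same size (log2 fold change -1.18, adjusted p = 0.0113). Slc15a2 lay at 3.45 and 0.0729 CPM in replicate 1 and at 8.98 and 12.04 CPM in replicate 2, without overlap but with a wide error (log2 fold change 3.72, SE 1.74, adjusted p = 0.323). The 0.0729 CPM rest on 2 counts. The other 5 genes, Slc6a19, Slc7a7, Slc6a20a, Slc6a20b, and Slc15a1, had log2 fold changes from -0.54 to 0.79 and overlapping libraries. The 95% interval of Slc7a7, the narrowest of them, ran from -0.89 to 0.46, and that of Slc6a19 from -1.73 to 1.29.

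The balance of the basolateral pair followed these changes. Per length, the intestinal libraries of replicate 1 held 19.6 (WT) and 13.4 (KO) times as much Slc7a7 as Slc7a8, and those of replicate 2 held 2.32 and 2.12 times as much. In the kidney this ratio ran from 1.22 to 4.24.

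**Figure D4:**
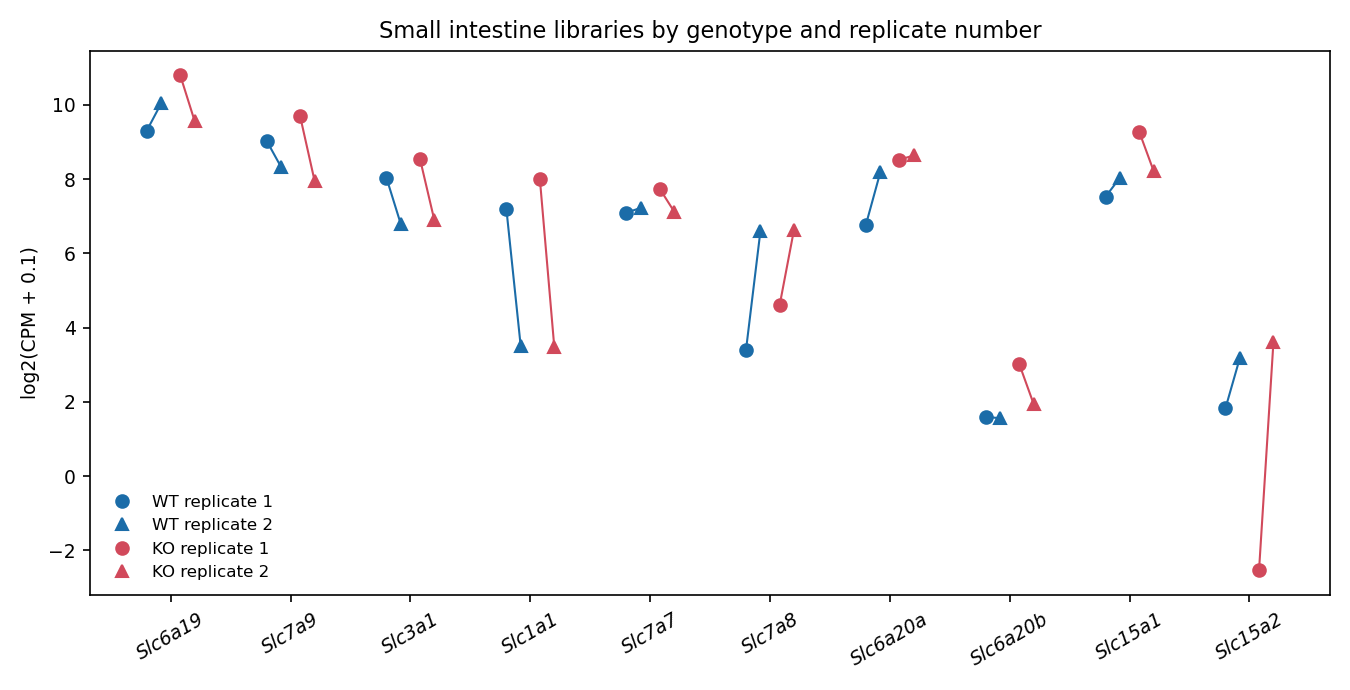
Level of each gene, as log2(CPM + 0.1), in the 4 small intestine libraries, with a line joining replicate 1 (circle) to replicate 2 (triangle) of 1 genotype. Slc1a1 and Slc3a1 fall and Slc7a8 rises toward replicate 2 in both genotypes, whereas the lines of Slc6a19, Slc7a7, and Slc15a1 run in opposite directions in the WT and KO.

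Of the 44 further carriers tested here, 1 was called higher in replicate 2 and 5 lower, where 4.52% and 3.11% of all genes were. Slc36a1, a proton-coupled carrier of small neutral amino acids, rose from 32.7 CPM ± 4.48 to 105 CPM ± 15.2 (n = 2 each, log2 fold change 1.71, SE 0.22, adjusted p = 0.0424). Slc6a14, a carrier of neutral and cationic amino acids, fell from 401 CPM ± 248 to 0.160 CPM ± 0.110 (log2 fold change -11.24, SE 0.32, adjusted p = 0.0100). Slc17a8 (-6.31), Slc6a7 (-1.97), and Slc36a4 (-1.91) were the other genes named by the same rule. Of the 12 peptidases, 3 were called higher and 6 lower, against the same shares of all genes. Tmprss15 (enteropeptidase, which activates trypsinogen) rose from 0.0290 CPM, on 2 counts, to 662 CPM ± 228, Mme (neprilysin) rose from 255 to 2107 CPM, and Ace rose with a log2 fold change of 1.74. Naaladl1 (-4.66), Mep1a (-4.47), and Xpnpep2 (-3.95) fell. Cltrn (log2 fold change -1.34, SE 0.75, adjusted p = 0.384) was not called.

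Nsun6-KO was then compared with WT within each organ. No transporter was called in any of the 5 organs by edgeR at the settings used throughout, whereas some other settings called Slc3a1 in the liver or Slc6a20a in the spleen, and Slc15a2 was called in the heart only where KO replicate 1 was left out, which leaves 1 KO library. Neither the small intestine nor the kidney had a called gene (0% of all), and none of the 10 genes was at an unadjusted p under 0.05 in either organ, where 2.39% (small intestine) and 0.638% (kidney) of all genes were. DESeq2 called 61 intestinal genes, none of them a transporter, and 0 renal genes, and it called Slc3a1 in the liver and Slc6a20a in the spleen.

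For 9 of the 10 genes the log2 fold change in the small intestine was positive, with a median of 0.44 against 0 over all genes. The KO libraries lay above the WT libraries without overlap for Slc15a1 (log2 fold change 0.99, SE 0.51, 95% interval -0.37 to 2.34), Slc6a20b (0.97, SE 0.57, interval -0.55 to 2.48), and Slc6a20a (0.90, SE 0.58, interval -0.64 to 2.43), and 25.2% of all genes did not overlap. The adjusted p of all 10 was 1. Without KO replicate 1 the log2 fold change was 0.41 for Slc15a1 and 0.36 for Slc6a20b, and that of Slc6a20a moved to 0.36 or 1.76 when the first or the second WT library was left out. The fits take no account of the replicate number, although the intestinal libraries differ by it. With the number as a block, no transporter was called either, and the log2 fold changes were 0.36 for Slc1a1, 0.56 for Slc7a8, and -1.91 for Slc15a2, in place of 0.68, 0.17, and -0.05. The KO replicate 1 library was the highest of the 4 for Slc6a19, Slc7a9, Slc3a1, Slc1a1, Slc7a7, Slc6a20b, and Slc15a1. Set against the WT library of the same number, Slc15a1 was 3.37 times as high in KO replicate 1 and 1.14 times in KO replicate 2. Slc6a20a was 3.37 and 1.37 times as high in the same order, and Slc6a20b was 2.72 and 1.31 times as high. Slc6a19 was 2.80 and 0.719 times as high, so its replicates pointed in opposite directions. By summed TPM, muscle markers were higher in both KO libraries than in both WT libraries, and none was called. The 8 smooth muscle markers summed to 283 and 369 TPM in the WT and to 2746 and 1180 TPM in the KO, led by Actg2 or Acta2, all 8 pointed up (median log2 fold change 2.05), and 7 did not overlap. The cardiomyocyte markers summed to 6.27 and 8.41 TPM in the WT and to 498 and 12.1 TPM in the KO. Leukocyte markers, led by Lyz2, summed to 637 and 169 TPM in the WT and to 76.0 and 287 TPM in the KO. No marker of these lists was called, and their part in the transporter values was not tested. The enterocyte markers summed to 24849 and 38874 TPM in the WT and to 36547 and 41070 TPM in the KO.

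In the kidney, the log2 fold changes ran from -0.49 (Slc6a19, SE 0.38) to 0.92 (Slc15a1, SE 0.92), with a median of 0.15 against -0.03 over all genes. For 4 of the 10, the genotypes did not overlap in CPM, with Slc6a19 and Slc7a9 lower and Slc6a20b and Slc15a1 higher in the KO, where 21.5% of all genes did not overlap. In TPM these 4 overlapped, while Slc3a1 and Slc1a1 did not overlap and were higher in the KO, so which genes separated the genotypes depended on the scale. Slc15a1 had a log2 fold change of 2.19 without WT replicate 1 and 0.32 without WT replicate 2, and Slc6a19 had -0.12 and -0.76 in the same order. The narrowest interval was that of Slc7a9, from -0.95 to 0.54, so that a 2-fold change lay outside it in either direction. Adipose markers, led by Cfd, summed to 156 and 110.4 TPM in the WT and to 99.4 and 1.72 TPM in the KO, and all 6 tested pointed down (median log2 fold change -1.91, none called), and their part was not tested. By CPM, the kidney WT replicate 2 library was highest of the 4 for Slc3a1, Slc1a1, and Slc15a2. It was lowest for Slc7a8, Slc6a20a, Slc6a20b, and Slc15a1. Of the proximal tubule markers, it held the lowest Slc34a1 (245 TPM) and Slc5a2 (34.9 TPM). The kidney WT replicate 1 library was highest of the 4 for Slc6a19 and, by a narrow margin, for Slc7a9 and Slc6a20a. It was lowest for Slc3a1, Slc1a1, Slc7a7, and Slc15a2. The proximal tubule markers did not share 1 direction in this library. Kap was lowest there at 80007 TPM (106887 to 134497 TPM in the other 3), while Slc34a1 was highest at 3374 TPM (245 to 1696 TPM in the other 3) and Slc5a2 was highest at 673 TPM (34.9 to 304 TPM in the other 3). Their part in the transporter values was not tested. Without this library, which leaves 1 WT library assumed to vary like the KO libraries, 2938 genes were called between the genotypes in the kidney (444 without WT replicate 2, 2 and 1 without either KO library), none of them one of the 10. The test of whether the KO effect differed between the kidney and the small intestine called none of the 19882 genes (1.98% at an unadjusted p under 0.05) and gave an adjusted p of 1 for all 10 transporters.

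**Figure D5:**
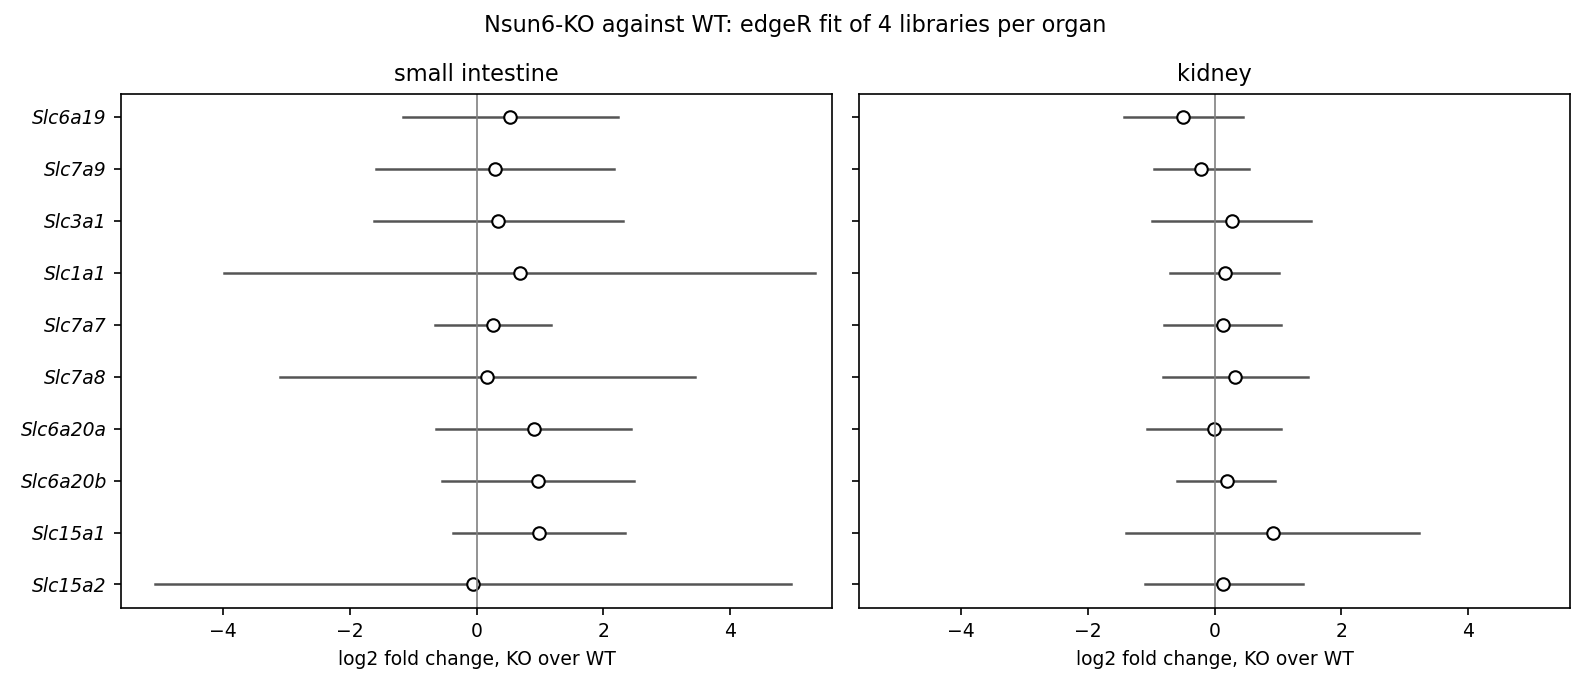
Log2 fold change of each gene between Nsun6-KO and WT (horizontal axis, positive where the KO is higher) in the small intestine and the kidney, with 95% intervals as lines and open points because no gene was called. All intervals include 0, and those of Slc1a1, Slc7a8, and Slc15a2 in the small intestine are the widest.

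Only 4 of the 10 genes were high enough to be tested in the liver, 7 in the spleen, and 4 in the heart, where 0.0509%, 0.223%, and 0% of all genes were called. In the heart, 0.703% of all genes were at an unadjusted p under 0.05, and DESeq2 called 2 genes. The member with the lowest p in each organ is described, chosen after its values were seen. Slc3a1 in the liver stood at 7.27 and 13.3 CPM in the WT and at 18.7 and 34.6 CPM in the KO. The genotypes did not overlap, as for 33.3% of all genes there, and the log2 fold change of 1.37 (SE 0.37, adjusted p = 0.917) was not called. It was called with the replicate number as a block (1.37, adjusted p = 0.0902), the KO being 2.57 and 2.61 times as high as the WT within replicates 1 and 2, and by DESeq2 (1.36, adjusted p = 0.0926). Without WT replicate 2 it was 1.88, which leaves 1 WT library that is assumed to vary like the KO libraries. Over the 4 fits with 1 library left out, the log2 fold change of Slc3a1 ranged from 0.88 to 1.88. Slc6a20a in the spleen stood at 5.05 and 7.69 CPM in the WT and at 18.8 and 16.2 CPM in the KO. Both KO libraries were above both WT libraries, where 31.3% of all genes did not overlap, with a log2 fold change of 1.49 (SE 0.27, adjusted p = 0.145) that was not called. DESeq2 called it (1.47, adjusted p = 0.000195). The spleen WT replicate 2 library held 5431 TPM of hepatocyte markers, led by Alb, against 10.8 to 262 TPM in the other 3, and without it the log2 fold change was 1.85 and called (adjusted p = 0.0266), with 1 WT library left that is assumed to vary like the KO libraries. Slc6a20a had no counts in the liver, and the part of the hepatocyte markers in its spleen values was not tested. Adipose markers in the spleen were also higher in the KO. Cfd stood at 51.5 and 14.2 TPM in the WT and at 102 and 90.4 TPM in the KO. Adipoq stood at 12.9 and 1.93 TPM in the WT and at 24.5 and 25.2 TPM in the KO. Plin1, Lep, and Cidec did not overlap either, while Retn and Ucp1 did. The part of the adipose markers in the spleen values of Slc6a20a was not tested. The spleen KO replicate 1 library held markers of the kidney, with Kap at 174 TPM against 1.16 to 2.59 TPM and Miox at 8.13 TPM against 0.105 to 0.248 TPM in the other 3, and without it the log2 fold change was 1.37 and not called (adjusted p = 0.306).

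Slc15a2 in the heart stood at 1.56 and 0.822 CPM in the WT and at 0.602 and 19.4 CPM in the KO, so its log2 fold change of 3.12 (SE 1.27, adjusted p = 1) rests on KO replicate 2 and was -0.98 without it. Without KO replicate 1 it was 4.08 and called (adjusted p = 0.00148), but the KO was then that 1 library, assumed to vary like the WT, and the call holds no spread among KO libraries. The same gene was lowest in KO replicate 1 and highest in KO replicate 2 in 4 organs. It stood at 0.0729 and 12.04 CPM in the small intestine, at 0.292 and 21.1 CPM in the liver, at 4.14 and 49.5 CPM in the spleen, and at 0.602 and 19.4 CPM in the heart. The WT libraries lay between them in all 4 organs. The kidney did not share this order, with 213 and 264 CPM in the KO between 123 and 303 CPM in the WT.

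Over the 20 libraries, the gene most like each member was sought among 21168 genes by Pearson's r of log2 CPM, given as a description because libraries of 1 organ share most of their pattern. The likeness was close for Slc7a9 with Slc13a1 (r = 0.991), Slc15a1 with Hes2 (0.988), Slc7a7 with Ggt1 (0.985), Slc6a19 with Olfm4 (0.982), Slc6a20b with Gm10732 (0.980), Slc3a1 with 2610528J11Rik (0.976), Slc1a1 with Cubn (0.961), and Slc7a8 with Dao (0.955). Slc6a20a was closest to St14. The likeness was lowest for Slc15a2, whose best match was Snx27 (0.877). Between the peptide carriers Slc15a1 and Slc15a2 it was -0.155.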

How the data were processed

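Total RNA of 5 organs was sequenced from stranded mRNA libraries. The authors trimmed reads with cutadapt, mapped them with HISAT2 2.1.0 to mm10 (the methods print GRCh38), counted exons of the Ensembl 102 annotation of GRCm38 with featureCounts 2.0.1, and deposited raw counts per gene, with the exon length in base pairs as another column. The methods state stranded counting of proper pairs, but the stored command holds neither option, so the mates of a pair may have been counted separately. Among genes with 10 to 50 counts, 54.9% to 59.8% had an even count, depending on the library. Low counts may therefore stand for fewer fragments than counts. Depth was 15897446 to 44508197 counts per library (median 28513950), and the spread between replicates limits the precision.

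edgeR 4.0.16 (R 4.3.3) was used with TMM scaling, filterByExpr, and the robust quasi-likelihood test, adjusted over all genes by Benjamini-Hochberg, and calls were made at an adjusted p under 0.1 with more than a 2-fold change. Standard errors are the log2 fold change over the square root of F. CPM were scaled over 20 libraries by TMM, and TPM were computed from counts and lengths. DESeq2 1.42.0, limma 3.58.1 on log2(TPM + 0.1), other scalings and filters, a replicate block, and each library left out were the alternatives. Fits were also run on simulated independent libraries with planted changes, without mixed tissues, and no result given here rests on them. Named genes were the 10 members, Nsun6, Cltrn, a gene not reported here, the most changed called carriers (up to 5 each way between organs, 4 between intestinal replicates) and peptidases (up to 3 each way), and the leading marker of each list with markers at 0. Pancreas markers summed to at most 10.1 TPM in any library, and other nephron markers to at most 0.446 TPM in the small intestine. Adipose markers summed to 123 to 205 TPM there and to 1.72 to 156 TPM in the kidney. This intestinal sum hides a split by replicate number. In the WT and KO, Cfd stood at 78.9 and 54.8 TPM in replicate 1 and at 0.939 and 0.209 TPM in replicate 2. Adipoq fell likewise, from 25.7 and 18.7 TPM to 0.125 and 0 TPM. Cidec went the other way, from 24.6 and 39.1 TPM to 195 and 205 TPM. The part of these markers in the transporter values was not tested. Members, lists, and tests were chosen with earlier results of these data known.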

Additional observations from a re-analysis of the deposited data

Results flagged for a closer look

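Of 50 groups of 4 libraries (10 genes in 5 organs), 8 held a library whose gap to its nearest neighbour, as a share of the group's range, was over the 95% critical value of Dixon's test. Chance gives about 1 in 20, but this rate does not hold for 3 of the 8 (Slc6a19 in the heart, Slc7a9 in the liver and in the heart), in which the other 3 libraries were at 0 and any count passes. Slc6a19 in the kidney was highest in WT replicate 1 at 331 CPM, and Slc7a7 in the small intestine was highest in KO replicate 1 at 213 CPM. Slc7a7 in the liver was lowest in WT replicate 1 at 2.33 CPM. Slc15a2 in the heart was highest in KO replicate 2 at 19.4 CPM. The other 4 lie at very low levels: Slc6a19 in the heart (0.384 CPM in WT replicate 2), Slc7a9 in the liver (0.0790 CPM in WT replicate 1), Slc7a9 in the heart (0.374 CPM in WT replicate 1), and Slc6a20b in the spleen (0.452 CPM in KO replicate 1). This spleen library also held the kidney markers Kap (174 TPM against 1.16 to 2.59 TPM in the other 3) and Umod (1.76 TPM against at most 0.0553 TPM), whose part in the value was not tested.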

How the results depend on the processing

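Between the kidney and the small intestine, 4 of the 10 genes were called where at least 10 counts were asked of every library, where Slc15a1 and Slc15a2 were not tested, 6 or 7 under the other alternatives, and 6 to 7 with each library left out in turn. Slc1a1 had a log2 fold change of -0.56 against intestinal replicate 1 only, Slc7a8 had -0.46 against replicate 2 only, and with the kidney WT replicate 1 and intestinal KO replicate 1 libraries left out (chosen after seeing the data), Slc7a8 had -0.30 and Slc3a1 was called (1.69). With each library left out, Slc1a1 ranged from -0.060 to 1.66, Slc7a8 from -0.058 to 1.13, and Slc15a2 from 4.76 to 6.40. The leading organ was called for 5 to 7 genes with each library left out.

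Between intestinal replicates, 3 genes were called, 5 by DESeq2, 1 by limma, and 1 to 6 with each library left out. Leaving out a library there left no residual degrees of freedom with genotype, so these fits, added after seeing the data, had no genotype term, and the lone library is assumed to vary like the others. Slc3a1 and Slc7a8 lost their calls without either replicate 2 library, and Slc1a1 kept its own in all 4 fits. In these fits Slc6a19 ranged from -0.90 to 0.51, Slc7a7 from -0.49 to 0.079, Slc6a20a from -0.027 to 1.65, Slc6a20b from -1.21 to 0.16, Slc15a1 from -1.07 to 0.60, and Slc15a2, not called at 3.72, from 1.60 to 7.15. Slc15a2 was called without either replicate 1 library, Slc7a9 and Slc15a1 without WT replicate 1, and Slc6a20a without KO replicate 1. All genes called were 1350, 2207 by DESeq2, 602 at an adjusted p under 0.05, and 234 by limma.

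Between genotypes, no transporter was called in the small intestine, in the kidney, or in the interaction under any alternative. In the small intestine, leaving out 1 library of this unpaired fit also unbalances the replicate numbers, and thereby the distal-like and proximal-like libraries, between the genotypes. The ranges were -0.17 to 0.97 (Slc6a19), -0.78 to 0.86 (Slc7a9), -0.66 to 1.09 (Slc3a1), -2.85 to 3.49 (Slc1a1), -0.044 to 0.47 (Slc7a7), -1.27 to 2.52 (Slc7a8), 0.36 to 1.76 (Slc6a20a), 0.36 to 1.36 (Slc6a20b), 0.41 to 1.36 (Slc15a1), and -6.44 to 0.94 (Slc15a2). In the kidney they were -0.76 to -0.12 (Slc6a19), 0.32 to 2.19 (Slc15a1), -0.20 to 0.99 (Slc3a1), -0.12 to 0.52 (Slc1a1), -0.19 to 0.55 (Slc7a7), -0.092 to 0.97 (Slc7a8), -0.27 to 0.32 (Slc6a20a), and -0.35 to 0.93 (Slc15a2), and Slc6a20a, at -0.01, turned to 0.001 with no filter, 0.001 with the replicate block, and 0.023 with all 20 libraries in 1 fit. In the liver, Slc3a1 was the 1 gene called by DESeq2, with no filter, and with the replicate block, and 0 to 1 were called with each library left out. In the spleen, Slc6a20a was the 1 gene called by DESeq2, with no filter, and with at least 10 counts in every library, and 0 to 1 were called with each library left out. In the heart 0 to 1 were called in this way, and Slc15a2 ranged from -0.98 to 4.08. The cause of these changes was not tested.

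Counts over all genes moved more. Between organs 5361 genes were called with at least 10 counts in every library, against 8755. Between genotypes in the liver 8 genes were called, 56 by DESeq2, 122 with no filter, 0 with all 20 libraries in 1 fit, and 2 to 205 with each library left out. In the spleen 42 were called, 219 by DESeq2, 313 with no filter, 105 with at least 10 counts, 0 at an adjusted p under 0.05 or with all 20 libraries, and 0 to 371 with each library left out. In the heart 0 were called, 13 with no filter, and 0 to 22 with each library left out, and in the interaction 0, 3 by DESeq2, and 77 with no filter.

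No source says what the replicate number stands for, but in the small intestine it also separates distal-like from proximal-like libraries. Same-numbered libraries deviated together with r = 0.57 in the small intestine, 0.126 in the kidney, 0.038 in the liver, 0.007 in the spleen, and 0.365 in the heart. The replicate block moved all genes called from 8 to 20 in the liver, from 42 to 43 in the spleen, and from 0 to 6 in the heart, left 0 in the small intestine and kidney, and between organs gave 8555 in place of 8755 with 6 transporters called. No paired analysis was possible for the intestinal replicates because the number is what they were split by.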
